A study of Rattus norvegicus with 11 samples.

Results

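Voltage-gated sodium channels were followed through 9 genes of rat dorsal root ganglion, 6 that encode pore-forming alpha subunits (Scn1a, Scn3a, Scn8a, Scn9a, Scn10a and Scn11a) and 3 that encode auxiliary beta subunits (Scn2b, Scn3b and Scn4b). The genes were chosen by symbol from the deposited table, not by their values. All 9 of 9 had a row among the 16811 genes of the table, and all 9 were among the 12085 genes tested. Their lowest value in any library was 13.8, above the minimum of 10 that a gene had to reach in at least 3 libraries, so no member entered the test through a single group.

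Libraries were made from total RNA of dorsal root ganglia of Sprague-Dawley rats, 11 in all. Sham ganglia (n = 4) are labelled as control and right side. SNL ganglia (n = 4) are from the left side after ligation of a spinal nerve, a nerve injury that serves in studies of neuropathic pain. SNL plus UNC0638 ganglia (n = 3) are from the left side too, ligated and then given UNC0638, an inhibitor of the histone methyltransferases G9a and GLP. Side and operation cannot be told apart, and no group received the inhibitor without ligation. The age and sex of the rats, the time after ligation, the dose of the inhibitor and the spinal level of the ganglia could not be read from the labels. RNA was extracted with either of a pair of reagents, and the labels do not say which library received which. The labels do not say that the libraries of a group came from separate animals, so p-values measure the spread between these libraries, which may be technical.

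A sodium channel is built around 1 alpha subunit, whose voltage sensors open the pore on depolarisation and give the upstroke of the action potential. Beta subunits are single-pass membrane proteins that change the gating and surface level of the alpha subunit and act as adhesion molecules. In sensory neurons, Scn9a, Scn10a and Scn11a are known as the channel genes of nociceptors, and the products of the latter pair resist block by tetrodotoxin. Scn1a and Scn8a are known from larger, myelinated sensory neurons, and Scn3a from the embryonic nervous system and from injured adult neurons.

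Values are counts that were scaled before deposit, and their sums were not equal, at 9449600 to 11347268 a library. From the value of a single read, depth was estimated at 6127606 to 24367577 reads a library. Between replicates the chi-square per gene was 5.65 to 76.7, where counting noise alone gives about 1. For Scn3a, the member with the fewest reads, 12 to 190 estimated reads stood behind each value. Values are not divided by transcript length, so levels are compared between libraries and not between genes. All 11 pan-neuronal markers in the table were tested and none was at 0 in any library. Of 5 central glia markers, Olig2 was at 0 in 10 of 11 libraries and Mobp in 4, while Mog, Aqp4 and Slc1a2 were above 0 in all. Summed central glia values were 48.3 to 135.2 a library. In all, 3 libraries stood apart. SNL plus UNC0638 replicate 1 had a summed level of 74607 over 10 skeletal muscle markers, against 140.2 to 513.6 in all other libraries, some of which had Myh2, Tnni2 or Mb at 0. Its injured neuron markers (10 genes such as Atf3, Gal and Sprr1a) lay 0.21 above the Sham mean in mean log2 level. The other libraries with UNC0638 lay 2.86 and 3.18 above it, and SNL 4.20 to 4.69. Sham replicate 3 and SNL replicate 3 had the highest large-diameter neuron markers of their groups, 0.62 above and 0.52 below the Sham mean.

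The upstream sequences of 4 members are printed because these genes gave the steepest falls after ligation (Scn10a and Scn11a), the rise (Scn3a) and a fall from a promoter of another base composition (Scn8a). Of the 9 members, 7 had an entry in RefSeq's promoter sequences of the rat build GRCr8, each 300 bases long, from 250 before to 50 after the annotated start of the gene. Scn1a and Scn3b had none. Capitals mark matches on either strand to 4 motifs. The GC box was searched as GGGCGG and the E-box as CANNTG. An AP-1 site was searched with the letters TGANTCA, and a TATA box with TATAAA. No matches overlapped. The windows are Scn10a at chr8:128340249-128340548 (minus strand), Scn11a at chr8:128444669-128444968 (minus), Scn3a at chr3:70666149-70666448 (minus) and Scn8a at chr7:133860977-133861276 (plus), each read 5′ to 3′ along the gene.
Scn10a: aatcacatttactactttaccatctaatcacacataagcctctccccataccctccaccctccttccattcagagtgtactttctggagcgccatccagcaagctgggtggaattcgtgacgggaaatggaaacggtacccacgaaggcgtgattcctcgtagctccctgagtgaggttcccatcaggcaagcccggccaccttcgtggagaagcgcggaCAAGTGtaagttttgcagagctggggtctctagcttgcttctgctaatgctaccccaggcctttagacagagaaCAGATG
Scn11a: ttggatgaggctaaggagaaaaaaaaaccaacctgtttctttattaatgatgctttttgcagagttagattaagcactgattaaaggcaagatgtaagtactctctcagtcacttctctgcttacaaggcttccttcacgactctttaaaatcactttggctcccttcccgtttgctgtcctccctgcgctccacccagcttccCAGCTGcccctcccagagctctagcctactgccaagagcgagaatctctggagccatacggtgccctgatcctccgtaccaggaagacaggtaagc
Scn3a: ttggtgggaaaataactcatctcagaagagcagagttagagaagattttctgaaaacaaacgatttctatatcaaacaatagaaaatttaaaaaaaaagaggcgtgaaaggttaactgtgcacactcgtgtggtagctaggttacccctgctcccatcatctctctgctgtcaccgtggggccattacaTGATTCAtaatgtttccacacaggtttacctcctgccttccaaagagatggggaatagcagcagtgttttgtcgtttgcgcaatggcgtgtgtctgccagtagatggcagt
Scn8a: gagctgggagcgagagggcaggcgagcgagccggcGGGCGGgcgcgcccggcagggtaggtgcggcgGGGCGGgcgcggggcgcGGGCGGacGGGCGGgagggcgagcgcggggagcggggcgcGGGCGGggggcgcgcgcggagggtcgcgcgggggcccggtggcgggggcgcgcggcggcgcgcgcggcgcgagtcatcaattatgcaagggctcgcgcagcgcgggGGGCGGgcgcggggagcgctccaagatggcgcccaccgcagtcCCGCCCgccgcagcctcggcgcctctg

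Scn8a stood out by base composition, with 60 CG dinucleotides and 7 GC boxes at 84.7% G and C. Only 0.0538% of the 33469 promoters in the table hold as many CG dinucleotides, and the median promoter holds 7. Scn10a held 11 CG dinucleotides and 2 E-boxes, Scn11a 6 and 1, and neither held a GC box. An E-box is found in 72.1% of all promoters of this length and a GC box in 33.1%. Scn3a held 7 CG dinucleotides, no E-box and 1 AP-1 match, which 7.33% of all promoters hold. Among the 7 members with a sequence it was the 1 with an AP-1 match, and none held a TATA box, which 14.2% of promoters hold. Scn9a (9 CG dinucleotides), Scn2b (2) and Scn4b (24) held 1, 3 and 2 E-boxes and no GC box. A match is a string of letters and says nothing of a factor's binding. In the RefSeq gene order, Scn1a and Scn9a are direct neighbours on chromosome 3, and Scn3a and Scn2a are neighbours on the same chromosome, with 4 protein-coding genes between Scn2a and Scn1a. Scn10a and Scn11a lie on chromosome 8 with 1 protein-coding gene between them, and Scn2b and Scn4b are direct neighbours elsewhere on that chromosome.

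After ligation 6 of the 9 sodium channel genes were lower and 2 higher. Scn11a, Scn10a, Scn1a, Scn8a, Scn9a and Scn4b fell, by 16.0-fold in the steepest case and 1.81-fold in the shallowest, while Scn3a and Scn3b rose 3.66-fold and 1.48-fold and Scn2b did not pass the test. Of all genes tested, 48.2% were called in this comparison, 23.4% lower and 24.8% higher. In 6 members every SNL library was below every Sham library and in 1 every one was above, as in 21.2% and 22.1% of all genes. The members' median log2 fold change was -1.05, against -0.0033 over all genes. Fold changes are on the scale of log2(value + 1), and tests are limma with Benjamini-Hochberg adjustment over all 12085 genes, two-sided at an adjusted p of 0.05. In RNA of whole ganglia, fewer cells of a type and less RNA per cell cannot be told apart.

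**Figure D1:**
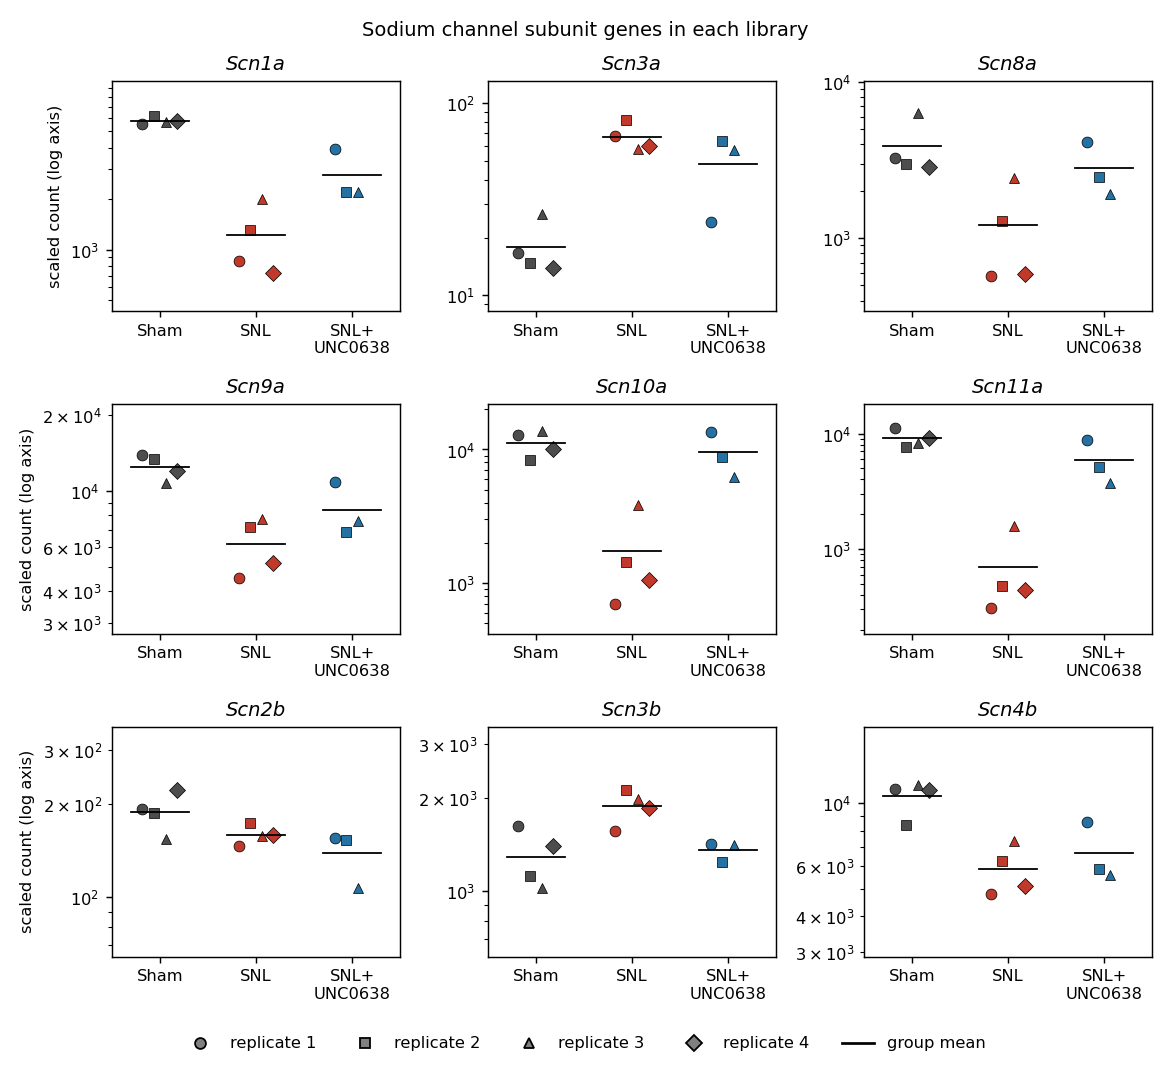
Scaled counts of the 9 sodium channel genes in each of 11 libraries, on log axes, by group, with replicate numbers as symbols and group means as lines. Scn10a and Scn11a were lower in every SNL library than in any other library, and Scn3a was higher in every SNL library than in any Sham library.

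Scn11a, which encodes a tetrodotoxin-resistant channel that carries a persistent current near the resting potential, was at 11278, 7721, 8325 and 9188 in Sham. In SNL it was at 306.6, 478.8, 1575 and 439.6, each below every Sham library. The log2 fold change was -4.00 (SE 0.43, adjusted p = 0.000106), a 16.0-fold fall. Scn10a, which encodes the tetrodotoxin-resistant channel that carries most of the sodium current of nociceptor action potentials, was at 12836, 8382, 13710.5 and 10121 in Sham. It was at 693.2, 1430.1, 3806 and 1045 in SNL, again without overlap. Its log2 fold change was -2.97 (SE 0.43, adjusted p = 0.000304), 7.84-fold lower.

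Scn9a, the tetrodotoxin-sensitive channel gene of nociceptors whose loss removes pain in people, had the shallowest fall of the alpha subunits that fell. It was at 13881, 13473, 10722 and 11972 in Sham and at 4507, 7222, 7757 and 5157 in SNL. The groups did not overlap, and Scn9a was 2.07-fold lower (log2 fold change -1.05, SE 0.20, adjusted p = 0.00123).

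The channel genes of larger neurons fell as well. Scn1a was tightly grouped in Sham, at 5522, 6199.6, 5644 and 5754, and spread from 722.3 to 1984 in SNL (854.0, 1299, 1984 and 722.3). The log2 fold change was -2.36 (SE 0.29, adjusted p = 0.000139), 5.14-fold lower. Scn8a, which encodes the main channel of nodes of Ranvier, was at 3271, 2990.2, 6332 and 2871 in Sham and at 571.9, 1293, 2429 and 587.4 in SNL. Sham replicate 3 and SNL replicate 3 were the highest of their groups, and the groups did not overlap. Scn8a was 3.6-fold lower (log2 fold change -1.85, SE 0.44, adjusted p = 0.00532).

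Scn3a rose from a low level. It was at 16.7, 14.8, 26.5 and 13.8 in Sham and at 67.7, 81.5, 57.8 and 60.2 in SNL, every SNL library above every Sham library. The log2 fold change was 1.87 (SE 0.31, adjusted p = 0.000629), 3.66-fold higher, and the added 1 makes this a slight understatement.

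The beta subunits went 3 ways. Scn4b, whose product can block the open pore and is tied to resurgent current, was at 11260.1, 8357, 11624 and 11096 in Sham and at 4795, 6259, 7368 and 5106 in SNL. The groups did not overlap, and Scn4b was 1.81-fold lower (log2 fold change -0.86, SE 0.18, adjusted p = 0.00254). Scn3b was at 1628, 1113, 1019 and 1393 in Sham and at 1566, 2125, 1979 and 1862 in SNL. SNL replicate 1 lay below the highest Sham library, and Scn3b was 1.48-fold higher over the group means (log2 fold change 0.56, SE 0.15, adjusted p = 0.0105). Scn2b, whose product is linked to alpha subunits by a disulfide bond, was at 193.4, 187.5, 154.3 and 222.9 in Sham and at 146.7, 174.5, 158.4 and 159.6 in SNL. The groups overlapped, and the log2 fold change of -0.23 (95% interval -0.58 to 0.11, adjusted p = 0.238) did not pass.

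Neuronal markers moved in the same comparison. Of 11 pan-neuronal markers tested, 9 were lower and 1 (Tubb3) higher in SNL, with a median log2 fold change of -0.65, and their mean level lay 0.40 to 1.14 below the Sham mean in the 4 SNL libraries. Of 11 nociceptor markers that are not sodium channel genes, 10 were lower and 0 higher, with a median of -2.09, and of 9 large-diameter neuron markers 5 were lower and 0 higher, with a median of -1.11. Summed pan-neuronal values were 116855 to 134568 in Sham and 110411 to 141511 in SNL, and summed nociceptor values 63401 to 83251 and 47162 to 51719. Of 8 macrophage markers 7 were higher, as were 6 of 6 fibroblast markers. The part of these shifts in the channel genes was not tested. When each library was instead scaled to its pan-neuronal markers, the median log2 fold change of all genes moved to 0.79. Of the 12085 genes, 7801 were then called higher and 596 lower. On that scale Scn11a (-3.20), Scn10a (-2.17), Scn1a (-1.56) and Scn8a (-1.05) were still called lower, and Scn3a (2.64) and Scn3b (1.36) higher. Scn9a (-0.25, adjusted p = 0.183) and Scn4b (-0.06, adjusted p = 0.756) were not called, and Scn2b turned to 0.56 (adjusted p = 0.0426).

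**Figure D2:**
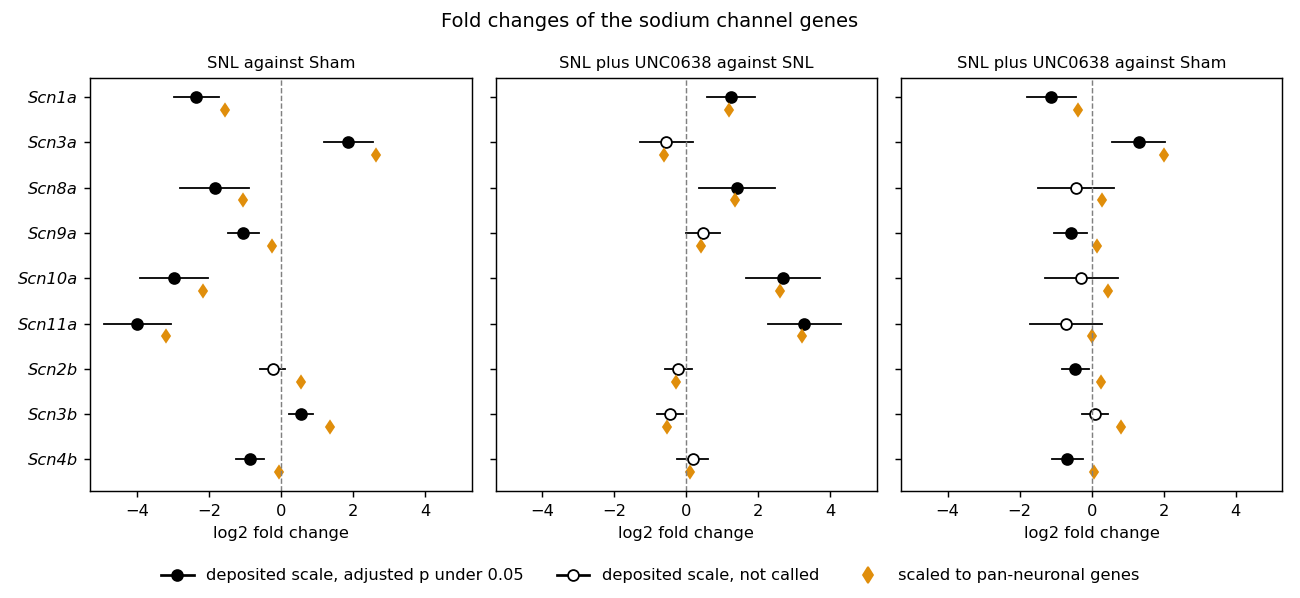
Log2 fold changes of the 9 genes in 3 comparisons, with circles and 95% intervals for the deposited scale (filled where called) and diamonds for libraries scaled to pan-neuronal markers. On the second scale Scn9a and Scn4b lie near 0 after ligation (-0.25 and -0.06) and Scn2b changes sign, while Scn10a and Scn11a stay at -2.17 and -3.20.

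UNC0638 in ligated ganglia went with higher levels of 4 alpha subunit genes than ligation alone. Scn11a, Scn10a, Scn8a and Scn1a were 9.72-fold, 6.42-fold, 2.65-fold and 2.37-fold higher in SNL plus UNC0638 than in SNL, and no member was called lower. Of all genes tested, 27.8% were called, 13.5% higher and 14.3% lower. In 3 members all libraries with UNC0638 were above SNL and in 1 all were below, as in 17.7% and 19.9% of all genes. The members' median log2 fold change was 0.46, against 0.01 over all genes. SNL libraries enter this comparison and the previous one, so the directions of both are not independent.

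Scn11a was at 8748, 5132 and 3702 in the 3 libraries with UNC0638, above all 4 SNL libraries (306.6 to 1575). The log2 fold change was 3.28 (SE 0.46, adjusted p = 0.00104). Scn10a was at 13555, 8818 and 6206, likewise above every SNL library (693.2 to 3806), and its log2 fold change was 2.68 (SE 0.47, adjusted p = 0.00257). In both genes replicate 1 was the highest. Without that library, the one with muscle transcripts and few injury transcripts, Scn11a was higher by 2.95 (adjusted p = 0.00429) and Scn10a by 2.39 (adjusted p = 0.0124) on the log2 scale.

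Scn1a was at 3931, 2177 and 2196 with UNC0638, above the highest SNL library (1984), and its log2 fold change was 1.24 (SE 0.31, adjusted p = 0.0133). With replicate 1 of the UNC0638 group left out it was 0.96 (adjusted p = 0.0537) and no longer called. Scn8a was at 4101, 2468 and 1922, and SNL replicate 3 (2429) lay among these. Its log2 difference of 1.41 (SE 0.48, adjusted p = 0.0475) was the weakest of the calls and was lost in 9 of 11 fits without 1 library, at adjusted p values of up to 0.159. Muscle markers were 8.5 above the Sham mean in replicate 1 and 0.56 above and 0.15 below it in replicates 2 and 3, and their part in these values was not tested.

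Scn9a was at 10850.4, 6867 and 7603 with UNC0638, which overlapped with SNL (4507 to 7757). The log2 fold change of 0.46 (95% interval -0.0024 to 0.93, adjusted p = 0.120) did not pass. Scn3a was at 24.2, 63.4 and 56.8, with replicates 2 and 3 within or next to the SNL range (57.8 to 81.5) and replicate 1 within the Sham range. Its log2 fold change was -0.56 (95% interval -1.30 to 0.17, adjusted p = 0.222), and -0.14 without replicate 1.

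Scn3b was at 1423, 1241 and 1406, below every SNL library (1566 to 2125), with a log2 fold change of -0.47 (95% interval -0.83 to -0.10, adjusted p = 0.0547). It fell just short of the threshold, and was called lower in 7 of 24 alternative fits. Scn4b was at 8600.2, 5885 and 5605, within the SNL range except for replicate 1, with a log2 fold change of 0.18 (95% interval -0.25 to 0.61, adjusted p = 0.502). Scn2b was at 156.1, 153.2 and 107.1, with a log2 fold change of -0.22 (95% interval -0.59 to 0.15, adjusted p = 0.343).

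Neuronal markers moved in this comparison too. Of 11 pan-neuronal markers, 1 was higher and 3 lower with UNC0638 (median log2 fold change 0.39), of 11 nociceptor markers 4 were higher and 1 lower (median 0.69), and of 10 injured neuron markers 9 were lower (median -2.31). Summed values went the other way from the medians of the first 2 lists. Summed pan-neuronal values were 65622 to 79876 with UNC0638 and 110411 to 141511 in SNL, without overlap. Summed nociceptor values were 35092 to 46872 with UNC0638 and 47162 to 51719 in SNL, also without overlap. The part of these marker shifts in the channel genes' values was not tested. Scaling to pan-neuronal markers moved the median of all genes to -0.06, and called 900 of the 12085 genes higher and 519 lower. The same 4 members were called higher on that scale, with Scn11a at 3.21, Scn10a at 2.61, Scn8a at 1.34 and Scn1a at 1.17.

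**Figure D3:**
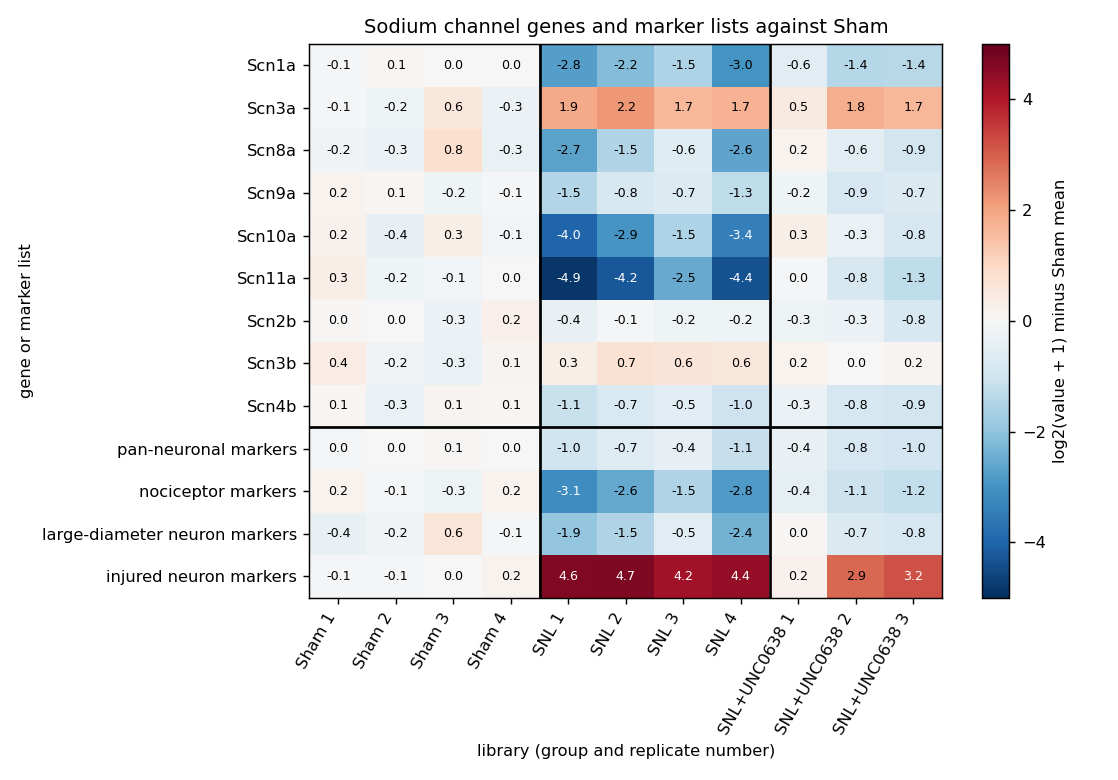
Log2(value + 1) minus the Sham mean for the 9 genes (rows above the line) and for the mean of 4 marker lists (rows below), in each of 11 libraries. In SNL plus UNC0638 replicate 1 most channel genes and the injured neuron markers (0.21) lie near Sham, while the injured neuron markers of replicates 2 and 3 lie at 2.86 and 3.18.

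Between SNL plus UNC0638 and Sham 5 of 9 members were called, a share near that of all genes. Scn1a, Scn9a, Scn4b and Scn2b were called lower and Scn3a higher, and Scn10a, Scn11a, Scn8a and Scn3b were not called. Of all genes tested, 51.5% were called, 26% lower and 25.5% higher. In 1 member all libraries with UNC0638 were below Sham, as in 24.9% of all genes, and in 0 members all were above, against 23.4%. Of 11 pan-neuronal markers 8 were lower and 0 higher, and of 11 nociceptor markers 5 were lower and 0 higher. Higher were 8 of 10 injured neuron, 8 of 8 macrophage, 4 of 4 T cell and 4 of 6 fibroblast markers, and the part of these shifts in the channel genes was not tested. The members' median log2 fold change was -0.46, against -0.01 over all genes.

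Scn1a was lower in all 3 libraries with UNC0638 (2177 to 3931) than in any Sham library (5522 to 6199.6), with a log2 fold change of -1.12 (SE 0.31, adjusted p = 0.0105), and its call was lost without SNL plus UNC0638 replicate 2 (adjusted p = 0.0522). Scn3a was 2.47-fold higher (log2 fold change 1.31, SE 0.34, adjusted p = 0.00739), although replicate 1 (24.2) lay below the highest Sham library (26.5). Without that replicate Scn3a was at 1.73 on the log2 scale (adjusted p = 0.000693). Scn4b was 1.6-fold lower (log2 fold change -0.68, SE 0.20, adjusted p = 0.0132), with replicate 1 (8600.2) above the lowest Sham library (8357). The Scn4b call was lost without SNL plus UNC0638 replicate 2 or 3 (adjusted p = 0.0591 and 0.0648).

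Scn9a was 1.5-fold lower (log2 fold change -0.59, SE 0.21, adjusted p = 0.0362), and Scn2b was 1.37-fold lower (log2 fold change -0.46, SE 0.17, adjusted p = 0.0420). Both overlapped with Sham, and the Scn9a call was lost in 5 and the Scn2b call in 8 of 11 fits without 1 library. Scn10a had a log2 fold change of -0.29 with a 95% interval of -1.31 to 0.73 (adjusted p = 0.625), so a 2-fold fall lies within it. Scn11a had -0.72 with an interval of -1.72 to 0.29 (adjusted p = 0.210). Scn11a was called lower in 4 of 24 alternatives: limma-voom (-0.85, adjusted p = 0.0290), only both groups in the fit (adjusted p = 0.0487), without SNL replicate 3 (adjusted p = 0.0393), and without the 3 libraries that stood apart, a setting added after the data were seen (-1.09, adjusted p = 0.0013). Scn8a (-0.44, interval -1.49 to 0.61) and Scn3b (0.10, interval -0.27 to 0.46) did not pass the test. On the pan-neuronal scale, where the median of all genes was 0.71, none of the members was called lower and Scn3a (2.0) and Scn3b (0.83) were called higher. That scale called 6277 of the 12085 genes higher and 122 lower. Scn8a (0.29), Scn9a (0.14), Scn10a (0.44), Scn11a (0.015), Scn2b (0.27) and Scn4b (0.056) changed sign on that scale.

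The order of the group means for Scn10a, Scn11a, Scn1a, Scn8a, Scn9a and Scn4b was Sham, then SNL plus UNC0638, then SNL. Scn3a had the opposite order, and Scn2b was lowest with UNC0638. In Scn10a, Scn11a and Scn8a the neighbours Sham and SNL plus UNC0638 did not pass the test of their difference. In Scn9a and Scn4b the neighbours SNL plus UNC0638 and SNL did not, and in Scn1a all 3 groups differed. Scn3b was highest in SNL, at 1883 ± 237 (SD, n = 4), against 1357 ± 101 (SD, n = 3) with UNC0638 and 1288 ± 276 (SD, n = 4) in Sham.

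The coefficient of variation was higher in SNL than in Sham in 6 of 9 members and lower in Scn3a (15.9% against 32.4%), Scn3b (12.6% against 21.5%) and Scn2b (7.12% against 14.9%). SNL replicate 3 was the highest SNL library in 6 of 9 members (Scn1a, Scn8a, Scn9a, Scn10a, Scn11a and Scn4b), and SNL replicate 1 the lowest in 7. SNL plus UNC0638 replicate 1 was the highest of its group in 8 of 9 members and the lowest in Scn3a. For Scn11a the coefficient of variation was 84.0% in SNL against 17% in Sham, and for Scn1a 46.8% against 5.11%. Nociceptor markers of SNL replicate 3 lay 1.49 below the Sham mean, against 2.56 to 3.12 below in the other SNL libraries, and their pan-neuronal markers 0.40 against 0.66 to 1.14 below.

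Ratios between members within a library do not depend on library scale. A ratio itself depends on the lengths of both transcripts, so its level is not read, while its change between groups does not depend on them. Scn10a stood at 0.622 to 1.28 times the value of Scn9a in Sham, at 0.154 to 0.491 in SNL and at 0.816 to 1.28 with UNC0638. Scn11a stood at 0.573 to 0.812 times Scn9a in Sham, at 0.0663 to 0.203 in SNL and at 0.487 to 0.806 with UNC0638. For both pairs SNL did not overlap with either other group, while Sham and SNL plus UNC0638 overlapped.

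The log2 ratio of Scn10a to Scn9a was -0.17 ± 0.43 (SD, n = 4) in Sham, -2.09 ± 0.73 (SD, n = 4) in SNL and 0.13 ± 0.37 (SD, n = 3) with UNC0638. The difference between SNL and Sham was -1.92 (exact permutation test, two-sided, p = 0.0286, the smallest that 4 against 4 libraries can give). For Scn11a to Scn9a the difference was -2.95 with the same exact p. Both had an adjusted p of 0.0857 over 12 tests (4 pairs of genes, 3 comparisons), and 0.0571 is the lowest that these tests can reach, so no ratio could pass the correction. Between SNL plus UNC0638 and SNL the differences were 2.22 and 2.82, where 3 against 4 libraries cannot go below the exact p = 0.0571 that both reached (adjusted p = 0.0857).

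Scn3a stood at 0.00238 to 0.00469 times the value of Scn1a in Sham, at 0.0291 to 0.0833 in SNL and at 0.00616 to 0.0291 with UNC0638. No pair of groups overlapped, although the highest library with UNC0638 lay just under the lowest SNL library, and the log2 ratio was 4.23 higher in SNL than in Sham (exact permutation p = 0.0286, adjusted p = 0.0857). Scn4b stood at 1.84 to 3.86 times Scn8a in Sham, at 3.03 to 8.69 in SNL and at 2.1 to 2.92 with UNC0638. Its log2 ratio differed by 0.99 between SNL and Sham, which overlapped (exact permutation p = 0.0857, adjusted p = 0.114). Between SNL plus UNC0638 and SNL the difference was -1.23 without overlap (exact permutation p = 0.0571, the smallest reachable, adjusted p = 0.0857).

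**Figure D4:**
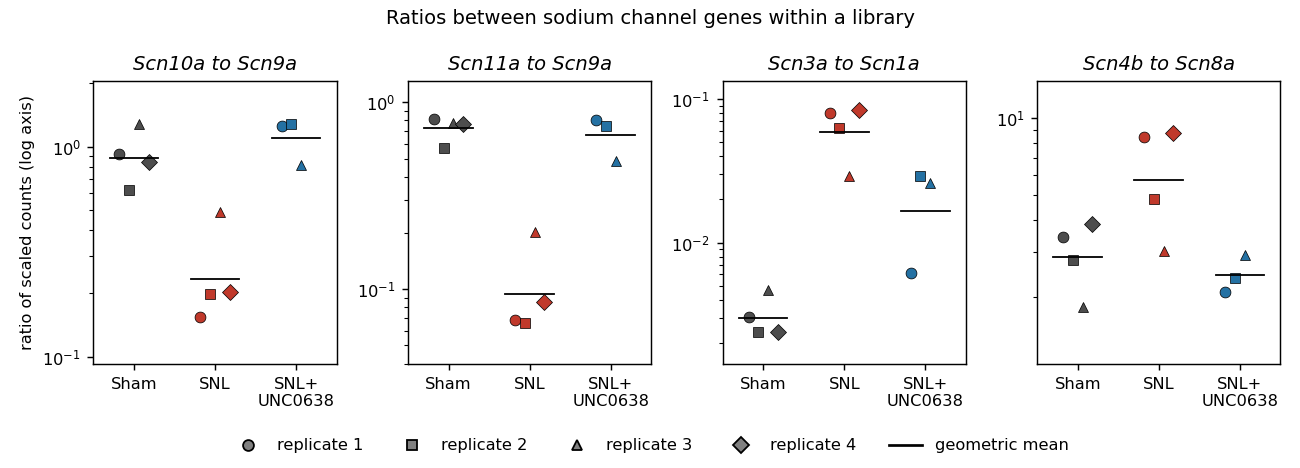
Ratios of scaled counts of 4 pairs of sodium channel genes within each library, on log axes, by group, with replicate numbers as symbols and geometric means as lines. Scn10a and Scn11a relative to Scn9a were lower in all 4 SNL libraries than in any other library (at most 0.491 and 0.203).

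Further Scn genes of the table were measured too. Scn7a, which encodes the sodium-sensing channel of glia and some neurons, was at 22171 ± 4048 (SD, n = 4) in Sham, 28105 ± 1251 (SD, n = 4) in SNL and 27309.9 ± 3484 (SD, n = 3) with UNC0638, and was called in no comparison (adjusted p = 0.0518 to 0.827). Scn2a1, the table's name for the brain channel gene Scn2a, was at 157 ± 33.9 (SD, n = 4) in Sham and 160.2 ± 26.1 (SD, n = 4) in SNL, which did not pass (adjusted p = 0.867). It was at 360.5, 352.7 and 285.1 with UNC0638, above every library of the other groups (at most 207.3), with a log2 fold change of 1.06 against SNL (adjusted p = 0.00271) and 1.10 against Sham (adjusted p = 0.000772).

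Scn4a, the skeletal muscle channel gene, was at 37.5 to 102.9 in Sham, at 15 to 41.3 in SNL and at 348, 82.0 and 47.7 with UNC0638, the first being the library with muscle transcripts and the others within the Sham range. It was called lower in SNL than in Sham (log2 fold change -1.48, adjusted p = 0.0429) and higher with UNC0638 than in SNL (2.08, adjusted p = 0.0242).

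Proteins that place or modulate sodium channels were followed in a list of 32 genes, of which 29 were tested. In SNL against Sham 13 were lower and 2 higher, with a median log2 fold change of -0.46, where 48.2% of all genes were called. Fgf12 and Fgf13 encode intracellular fibroblast growth factor homologues that bind the tail of alpha subunits. Fgf12 fell from 1074 ± 187 (SD, n = 4) to 258 ± 69.9 (SD, n = 4), and Fgf13 from 5804 ± 1111 (SD, n = 4) to 2436 ± 463 (SD, n = 4). Nrcam, an adhesion molecule of nodes of Ranvier, had a log2 fold change of -0.80, Ywhah, a 14-3-3 protein, -1.07, and Nedd4l, a ubiquitin ligase that removes channels from the membrane, -1.08. Gldn, which Schwann cells secrete at nodes, rose by 1.38. Adjusted p values of these 6 genes were 0.000114 to 0.00141.

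With UNC0638, 3 of the 29 were higher and 4 lower than in SNL (median 0.11), where 27.8% of all genes were called, so the share of the list is near that of all genes. Anxa2 and S100a10, whose products form a complex that carries the Scn10a channel to the membrane, were lower. Anxa2 was at 7241 ± 800 (SD, n = 3) against 15744 ± 1884 (SD, n = 4) in SNL (log2 fold change -1.12, adjusted p = 0.000465), and S100a10 at 4684 ± 506 (SD, n = 3) against 8570 ± 1239 (SD, n = 4) (-0.86, adjusted p = 0.0123). Calm2 (-0.79) and Calm3 (-0.45), which encode calmodulin, were lower, and Nedd4l (0.78) and the matrix gene Tnr (1.34) higher. Against Sham 12 were lower and 2 higher (median -0.14; 51.5% of all genes called), and those with the smallest p included Anxa2 (-1.04), Calm3 (-0.98), Calm2 (-1.51), Fgf12 (-1.42) and Ywhah (-1.11).

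Genes of the sodium pump and of the sodium leak channel gave 6 lower and 0 higher of 10 tested in SNL against Sham, with a median of -0.64 (48.2% of all genes called). Atp1b3, which encodes a beta subunit of the pump, fell by 1.09 on the log2 scale (adjusted p = 0.000322), and the pump regulator Fxyd2 fell by 1.71 (adjusted p = 0.000171). With UNC0638, 3 were higher and 1 lower than in SNL (median 0.70; 27.8% of all genes called). Fxyd2 (0.92) was higher, as was Unc79 (1.55), which encodes a part of the leak channel complex. Against Sham 5 were lower and 2 higher (median -0.66; 51.5% of all genes called), with Atp1b1 (-1.27), the leak channel gene Nalcn (-0.68) and Atp1b3 (-0.86) at the smallest p.

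Genes with the most similar pattern to each member were taken by Pearson's r of log2(value + 1) over the 11 libraries, which share groups and scaling, so that r is a description. They were Dpp6 (0.998) and Vwc2l (0.996) for Scn1a, Acpp (0.997) and Chrnb3 (0.995) for Scn10a, and Unc13c (0.994) and Htr3a (0.993) for Scn11a. For Scn8a they were Ank1 (0.997) and Sh3gl2 (0.996), and for Scn9a Magi3 (0.981) and Abca5 (0.981). Among the genes nearest to Scn3a was Plod3 (0.984), which was called higher with ligation. Scn4b was nearest to Dcaf5 (0.977), Scn2b to Akr1e2 (0.927) and Chmp6 (0.924), and Scn3b to Mmd (0.876) and Eif2ak3 (0.860). Over deviations from the group means alone, r was 0.918 or more for the genes nearest to Scn1a, Scn3a, Scn8a, Scn9a, Scn10a, Scn11a and Scn4b, 0.861 and 0.869 for those of Scn2b, and 0.616 and 0.542 for those of Scn3b. The genes were picked by r over the same libraries, so the selection itself raises these values.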

How the data were processed

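Total RNA of 11 libraries was sequenced as stranded, ribosome-depleted single-end reads, per the labels' protocols. The authors aligned reads to the rat build rn4 with TopHat2 2.0.9 and named Cuffdiff 2.1.1, per the submitters' processing notes. How paralogous genes shared reads, the annotation, the strand setting and the scaling method: not given in the sources used here. Deposited values are a signal: gene counts scaled by 1 factor per library, not raw counts. Of the low values of a library, 98.8% to 99.3% were whole multiples of 1 step within 0.01 steps, and this step was taken as 1 read to estimate depth.

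Genes are identified by symbol. Testing required 3 libraries at 10 or above, and 2 genes were left out by name, Sdc2 (at 0 in all 4 SNL libraries, 336.3 or more in all others) and Pcdhgc5 (at 0 in all 3 libraries with UNC0638, 45.0 or more in all others). As the values are not counts, the count test foreseen for raw counts was replaced by limma 3.58.1 in R 4.3.3. It modelled log2(value + 1) with 3 group means, all 11 libraries sharing the spread, and used eBayes with trend and robust estimates (statmod 1.5.0). The fit was also run on simulated data with known changes in a small share of genes and errors drawn independently for each gene. That setting differs from these data, where 48.2% of genes were called in SNL against Sham, so it cannot vouch for the fit here. Ratios within a library were tested by exact permutation over libraries. SEs come from limma's moderated variances.

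The genes, marker lists and tests were chosen with earlier results of these data known. The rule for named genes took all 9 members, all other Scn genes, the called list genes with the smallest p (6 and 3 per comparison) and, per member, the 2 most similar genes with a mean of at least 50. Some genes that it took are not reported here. Alternatives were other library scalings, filters, pseudocounts, tests, groups in the fit, a replicate block and each library left out.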

Additional observations from a re-analysis of the deposited data

Results flagged for a closer look

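Among 18 groups of 4 libraries (9 genes in Sham and SNL), 3 held a library with a gap to the others that was wide for the range of the group, and chance gives about 1 in 20. Scn8a was at 6332 in Sham replicate 3, with the next library at 3271. Scn11a was at 1575 in SNL replicate 3, with the next at 478.8. Scn4b was at 8357 in Sham replicate 2, below the next at 11096. Groups of 3 were not examined in this way.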

How the results depend on the processing

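Over 24 alternatives, 589 of the fold changes of single members kept their direction and side of the threshold. With the direction kept, 37 lost a call and 12 gained a call, and 10 changed sign. Some changes of sign on the pan-neuronal scale moved a call too. In SNL plus UNC0638 against Sham, Scn9a, Scn2b and Scn4b lost theirs (adjusted p = 0.526, 0.383 and 0.804). In SNL against Sham, Scn2b gained a call (adjusted p = 0.0426). With libraries scaled to pan-neuronal markers Scn2b turned to 0.56 in SNL against Sham, and in SNL plus UNC0638 against Sham Scn8a turned to 0.29, Scn9a to 0.14, Scn10a to 0.44, Scn11a to 0.015, Scn2b to 0.27 and Scn4b to 0.056. Scn3b, not called against Sham, turned to -0.0078 without Sham replicate 3 (-0.0078 to 0.22 without 1 library) and to -0.044 without the 3 libraries that stand apart. Scn4b, not called against SNL, turned to -0.013 without SNL plus UNC0638 replicate 1 (-0.013 to 0.30 without 1 library), and the log2 ratio of Scn11a to Scn9a against Sham to 0.097 without SNL plus UNC0638 replicate 3 (-0.27 to 0.097 without 1 library). Members called in SNL against Sham stayed within 1.5 times of their number in all of them. In SNL plus UNC0638 against SNL, 1 member (Scn3b) was called lower, in place of 0, with TMM scaling, upper-quartile scaling, only both groups compared or the 3 libraries that stand apart left out. Leaving out 1 library gave 0 to 1 lower (1 without Sham replicate 1 or 3 or SNL replicate 1) and 2 to 4 higher, with 2 higher without SNL plus UNC0638 replicate 1. In SNL plus UNC0638 against Sham, pan-neuronal scaling gave 2 higher and 0 lower, and leaving out 1 library gave 1 to 4 lower, with 1 without SNL plus UNC0638 replicate 2 or 3 and 2 without Sham replicate 1, 2 or 4.

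All genes called in SNL plus UNC0638 against SNL numbered 3356 (1630 higher, 1726 lower). They numbered 1419 (900 and 519) with pan-neuronal scaling, 5220 without the 3 libraries and 2032 to 4468 without 1 library, with 2032 without SNL plus UNC0638 replicate 2 and 2076 without SNL replicate 1. Pan-neuronal scaling split the calls of SNL against Sham into 7801 higher and 596 lower (2995 and 2828 on the deposited scale), and those of SNL plus UNC0638 against Sham into 6277 and 122 (3083 and 3137). limma-voom on the estimated reads split the calls of SNL plus UNC0638 into 3310 and 1528 against SNL and 4828 and 2860 against Sham, with the median of all genes at 0.13 and 0.19. The cause of these differences was not tested.

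Same-numbered libraries of different groups had correlations of deviations of -0.45 to 0.43 over 10 pairs, the highest between Sham replicate 3 and SNL replicate 3. Of 11 libraries, 3 correlated best with their own number. Deviations from means of 3 or 4 libraries cannot exclude that same-numbered libraries share an animal or a batch. With the replicate block, 2126 genes were called in SNL plus UNC0638 against SNL, and 2 members lower in SNL plus UNC0638 against Sham. Scn8a (adjusted p = 0.0947) lost its call in the former comparison, and Scn9a (0.0642) and Scn2b (0.0747) in the latter. edgeR's quasi-likelihood test on recovered reads was not run, because some low values were not whole. limma-voom was run on the same estimated reads in spite of this.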
